A study of Homo sapiens with 10 samples.

Results

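The C2H2 zinc finger genes on the short arm of chromosome 19 (19p) were examined for H3K9me3, a histone H3 methylation typical of heterochromatin. They were taken as the protein-coding genes of the arm whose symbol joins a digit to the prefix ZNF, ZFP, ZSCAN or ZKSCAN. This gave 84 genes of 20037 protein-coding genes, and 84 of the 566 genes so named in the genome. All 84 carry ZNF symbols, and one of them, ZNF559-ZNF177, is a readthrough entry that joins ZNF559 and ZNF177.

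The cells were BJ, a human foreskin fibroblast line, profiled by CUT&RUN, in which an antibody directs a protein A/G-micrococcal nuclease fusion to its target and the DNA released there is sequenced. H3K9me3 was profiled in 3 samples given siRNA against ERH and in 3 given non-targeting siRNA, and SOX2 in 2 samples of each kind, 48 hours after Sendai virus had delivered OCT4, SOX2, KLF4 and c-MYC. The siRNA was used at 5 nM in 2 transfections 3 days apart. The data used here are the regions called for H3K9me3 after ERH knockdown, in 1 list that merges the 3 samples, so every value below has no spread between replicates. The control group and the SOX2 groups were not analysed here, and nothing below says whether a gene gained or lost the mark when ERH was depleted. The list has no read counts, so depth is unknown.

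C2H2 zinc finger proteins bind DNA through arrays of short zinc-coordinating modules, and most of the family on chromosome 19 also carry a KRAB domain. The KRAB domain recruits TRIM28 (KAP1), which brings the H3K9 methyltransferase SETDB1 and HP1 proteins to the bound site, commonly a transposable element. ZNF91 and ZNF93 are the best known examples on 19p: ZNF93 represses a class of L1 elements, and ZNF91 represses SVA elements. The genes arose by repeated tandem duplication and lie in clusters. In a typical member the short exons at the 5′ end encode the KRAB domain, and the large last exon encodes the finger array. The family's own gene bodies are a known location of H3K9me3 and TRIM28 in human cells, described mainly over the 3′ ends.

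The promoters are shown first, because 0 of those examined lay in a region while most of the gene bodies held one. RefSeq promoter windows (GRCh38.p14, 250 bases before to 50 after the start site) matched 73 of the 84 genes. The 11 without an entry were ZNF559, ZNF559-ZNF177, ZNF763, ZNF506, ZNF253, ZNF738, ZNF676, ZNF729, ZNF98, ZNF99 and ZNF728. Of the 73 windows, 0 shared a base with a region, which allows a share of up to 4.11% by counting error. The background was also low: 0.151% of 15842 windows of protein-coding genes touched a region, so the count of 0 does not set these genes apart. The next windows belong to 3 genes whose bodies held regions, ZNF91 (chr19:23395422-23395721, minus strand), ZNF93 (chr19:19900696-19900995, plus strand) and ZNF208 (chr19:22010894-22011193, minus strand). They are written 5′ to 3′ in the direction of the gene, and capitals mark CCAATCAG or its reverse complement CTGATTGG.

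ZNF91: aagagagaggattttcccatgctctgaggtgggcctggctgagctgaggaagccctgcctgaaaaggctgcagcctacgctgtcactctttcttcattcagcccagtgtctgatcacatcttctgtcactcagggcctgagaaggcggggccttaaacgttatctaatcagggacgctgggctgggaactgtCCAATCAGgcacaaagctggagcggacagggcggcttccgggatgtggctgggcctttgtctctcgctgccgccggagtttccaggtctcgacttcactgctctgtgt
ZNF93: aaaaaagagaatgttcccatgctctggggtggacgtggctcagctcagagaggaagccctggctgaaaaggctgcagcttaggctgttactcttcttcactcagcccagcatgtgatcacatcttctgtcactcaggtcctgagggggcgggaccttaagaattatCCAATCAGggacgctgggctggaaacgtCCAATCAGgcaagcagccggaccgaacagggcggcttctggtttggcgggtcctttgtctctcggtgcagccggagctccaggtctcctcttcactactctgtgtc
ZNF208: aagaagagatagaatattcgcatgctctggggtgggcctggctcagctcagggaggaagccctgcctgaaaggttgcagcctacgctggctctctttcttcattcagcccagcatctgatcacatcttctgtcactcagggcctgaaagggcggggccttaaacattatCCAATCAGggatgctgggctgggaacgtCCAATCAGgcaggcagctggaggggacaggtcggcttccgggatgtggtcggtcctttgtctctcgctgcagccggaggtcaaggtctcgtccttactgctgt

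Beside them stand the windows of the neighbours ZNF430 (chr19:21020407-21020706, plus strand) and ZNF714 (chr19:21081953-21082252, plus strand), whose bodies held no region, and of ZNF554 (chr19:2819618-2819917, plus strand), the member nearest the chromosome end, which was 56.2% covered.

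ZNF430: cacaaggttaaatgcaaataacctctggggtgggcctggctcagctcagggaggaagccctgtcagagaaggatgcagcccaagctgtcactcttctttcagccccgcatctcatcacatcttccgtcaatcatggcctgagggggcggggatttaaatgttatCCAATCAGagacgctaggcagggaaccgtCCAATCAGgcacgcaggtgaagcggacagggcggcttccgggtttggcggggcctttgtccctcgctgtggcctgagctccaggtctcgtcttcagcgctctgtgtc
ZNF714: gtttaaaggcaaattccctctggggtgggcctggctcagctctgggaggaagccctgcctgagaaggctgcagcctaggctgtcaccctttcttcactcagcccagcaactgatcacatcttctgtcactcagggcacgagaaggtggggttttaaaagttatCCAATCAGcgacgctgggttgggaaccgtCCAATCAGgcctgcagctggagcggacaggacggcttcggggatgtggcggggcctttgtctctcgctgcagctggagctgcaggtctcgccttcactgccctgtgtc
ZNF554: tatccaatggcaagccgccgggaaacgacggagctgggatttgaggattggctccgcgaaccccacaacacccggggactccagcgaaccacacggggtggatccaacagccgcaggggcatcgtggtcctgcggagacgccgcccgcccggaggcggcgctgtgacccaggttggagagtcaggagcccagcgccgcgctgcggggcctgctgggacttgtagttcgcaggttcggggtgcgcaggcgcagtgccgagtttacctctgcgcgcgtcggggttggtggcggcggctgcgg

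CCAATCAG was the most common 8-letter word of the windows, picked after looking at the sequences, and contains the CCAAT box. It was found on either strand in 53 of the 73 windows (72.6%), against 4.99% of the windows of all protein-coding genes. It was found in 5 of 155 windows of zinc finger genes on 19q (3.23%) and in 29 of 249 on other chromosomes (11.6%). Its shorter core, CCAAT, which overlaps it, was in 59 of the 73 windows (80.8%) and in 36.0% of all windows. The window of ZNF91 held 1 copy of the longer word, those of ZNF93, ZNF208, ZNF430 and ZNF714 held 2 each, and that of ZNF554 held 0. The first 5 windows were alike in sequence as paralogs are, with identities of 78.5% (ZNF208 and ZNF430) to 86.0% (ZNF91 and ZNF208) in global alignment. ZNF554 matched them at 49.7% to 51.9%. The word was in 49 of 66 windows of genes with a region and in 4 of 7 windows of genes without. The latter are few and the genes are related, and a link between word and region was not tested. The median window held 16 CG dinucleotides, ranging from 4 to 34, against a median of 22 over all windows.

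Regions lay on nearly every one of these genes. Of the 84 genes, 76 shared at least 1 base with a region (90.5%, Wilson 95% interval 82.3 to 95.1%, counting error only), where the share over all protein-coding genes was 10.5%. Neighbouring genes can lie in 1 domain, so they are not independent. Coverage was partial: the median covered share of the gene body over all 84 was 22.5%, with quartiles at 14.4% and 38.2%. At least 10% of the body was covered in 71 genes (2.40% of all protein-coding genes) and at least 50% in 9 (0.424% of all). Those 9 are among 85 such genes in the genome. Of the 76 genes, 62 had 1 region, 12 had 2, ZNF69 had 3 and ZNF560 had 4.

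The most covered gene was ZNF559, at 82.4% of 22.1 kb, from 1 region at chr19:9327670-9351155. The readthrough entry ZNF559-ZNF177 was at 54.9% and takes its coverage from the regions of the genes it joins. After ZNF559 came ZNF14 at 57.3%, ZNF737 at 56.5%, ZNF554 at 56.2%, ZNF208 at 54.2% and ZNF560 at 53.8%. ZNF724 and ZNF728, which lie near each other towards the centromere, were both at 51.7%. Just under 50% stood ZNF426 at 48.3%, ZNF699 at 47.9% and ZNF557 at 47.7%. These 12 genes lay in 3 groups of neighbours described further on: ZNF554 nearest the chromosome end, ZNF14, ZNF737, ZNF208, ZNF724 and ZNF728 next to the centromere, and the other 6 in the ZNF557 to ZNF846 group between.

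The other covered genes formed a continuous range. Between 40% and 50% were also ZNF558, ZNF177, ZNF441, ZNF709, ZNF626, ZNF738, ZNF493 and ZNF429, which with the 3 above makes 11. The 10 genes from 30% to 40% were ZNF556, ZNF69, ZNF700, ZNF878, ZNF844, ZNF44, ZNF442, ZNF333, ZNF93 and ZNF66. The 20 from 20% to 30% were ZNF555, ZNF77, ZNF121, ZNF491, ZNF439, ZNF763, ZNF433, ZNF20, ZNF136, ZNF563, ZNF443, ZNF564, ZNF253, ZNF682, ZNF90, ZNF43, ZNF492, ZNF723, ZNF91 and ZNF726. The 21 from 10% to 20% were ZNF57, ZNF317, ZNF266, ZNF561, ZNF627, ZNF823, ZNF440, ZNF490, ZNF791, ZNF506, ZNF486, ZNF85, ZNF708, ZNF100, ZNF257, ZNF676, ZNF729, ZNF98, ZNF675, ZNF681 and ZNF254. The 5 under 10% were ZNF562, ZNF846, ZNF799, ZNF431 and ZNF730. How reads shared between paralogs were handled is not stated, so the assignment of a region to a single gene is uncertain.

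**Figure D1:**
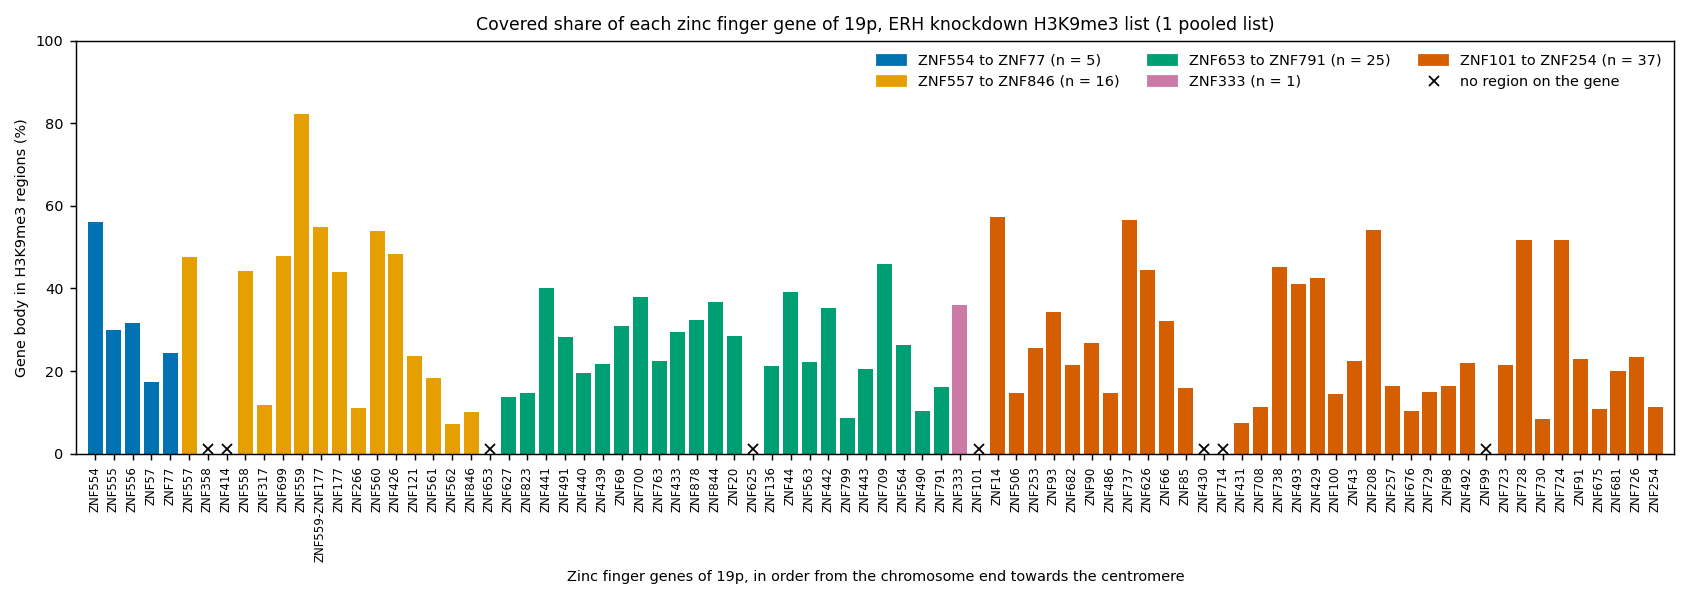
Percent of each gene body lying in H3K9me3 regions (y axis) for the 84 zinc finger genes of 19p in chromosomal order (x axis), coloured by cluster; crosses mark the 8 genes with no region. The bars run up to 82.4% for ZNF559, and low and high bars alternate within each of the larger clusters.

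The 8 genes with no region were ZNF358, ZNF414, ZNF653, ZNF625, ZNF101, ZNF430, ZNF714 and ZNF99. ZNF101 missed narrowly, with a region 0.51 kb beyond its 3′ end. ZNF625 was 10.6 kb and ZNF99 15.5 kb from the nearest region. ZNF358, ZNF414 and ZNF653 stood at 62.7, 199.6 and 110.2 kb from the nearest region. ZNF430 and ZNF714 are adjacent and lay together in a stretch of 227 kb without a region, from the region that runs past the end of ZNF85 to the one inside ZNF431, although both are surrounded by covered genes. At chr19:21020657-21060050 and chr19:21082203-21125094, they were 67.4 and 55.6 kb from the nearest region.

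Within the genes, the regions lay towards the 3′ end. Strand is known for the 73 genes with a promoter window, and 66 of these overlapped a region. Each gene body was cut into 3 equal parts in the direction of transcription. Over the 66 genes, 5.29% of the bases of the first part, 22.9% of the middle part and 53.7% of the last part lay in regions. The last part was more covered than the first in 63 of 66 genes (95.5%, Wilson 95% interval 87.5 to 98.4%), against 44.4% of all overlapping protein-coding genes with a strand. Of those 1739 genes, 772 had the last part more covered, 610 the first, and 357 had both equal. The 66 genes had 0 such ties. The first part held no region base in 58 of the 66 genes. That is a larger share than over all overlapping protein-coding genes with a strand, where it was also common (1011 of 1739, 58.1%). In 33 genes all covered bases were in the last part, against 24.3% of all such genes. At least 50% of the last part was covered in 39 genes, against 10.2% of all such genes, and the whole of it in 10, against 4.77%. Heavy 3′ coverage was not particular to 19p. Among overlapping zinc finger genes with a strand, at least 50% was covered in 54 of 91 on 19q and 57 of 107 on other chromosomes. The whole last part was covered in 26 and 34 of these, larger shares than the 10 of 66 on 19p.

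**Figure D2:**
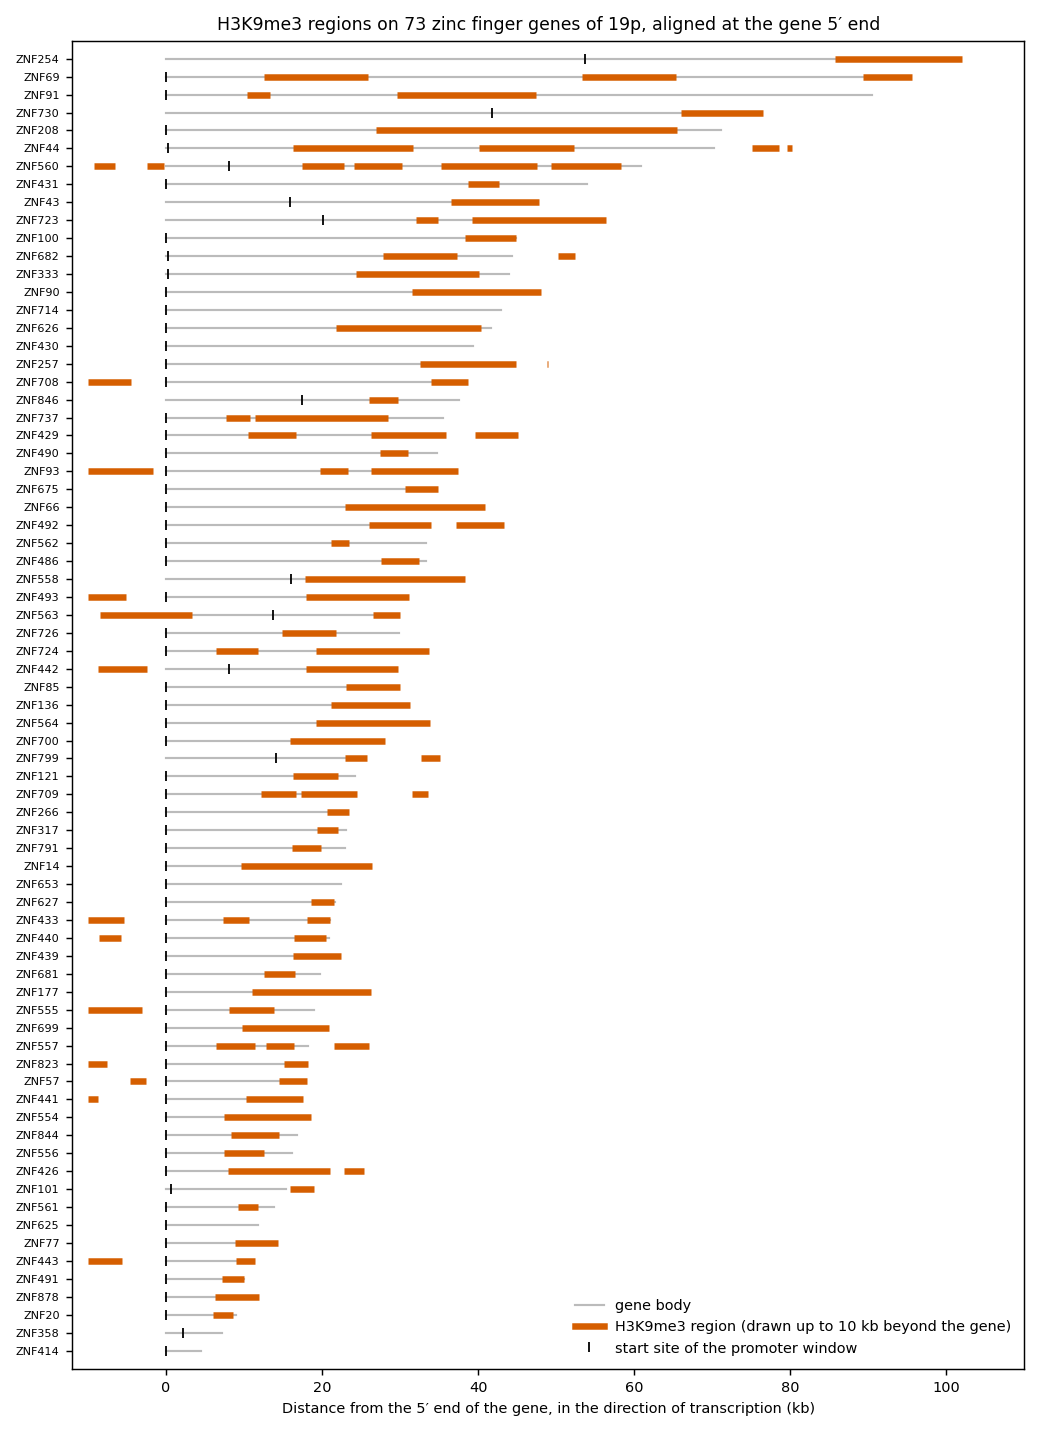
The 73 zinc finger genes of 19p with a known strand, sorted by length and aligned at the gene's 5′ end (x axis, kb in the direction of transcription); grey lines are gene bodies, orange bars are H3K9me3 regions and ticks are the start sites of the promoter windows. The orange bars sit at the right end of most lines, and no tick lies in a bar.

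Distances were measured in bases as well. From the start site to the nearest region the median was 11.2 kb over the 66 genes, with quartiles at 7.61 and 21.0 kb, and 0 start sites lay in a region. The start site is that of the 1 window used per gene, and in some genes it lay well inside the gene body. In ZNF563 it was 13.8 kb from the gene's 5′ end, and that 5′ end lay in a region. The gene's 3′ end lay inside a region in 39 of the 73 genes with a strand (53.4%, Wilson 95% interval 42.1 to 64.4%), against 1.32% of all protein-coding genes with a strand. Of the 66 genes with a region, 57 had one within 5 kb of the 3′ end, inside or beyond the gene. The share over all genes was not computed for this distance. The median distance from 3′ end to region was 0 bp over the 66 genes. Over all overlapping protein-coding genes with a strand it was 30337 bp, and 30006 bp from the start site. Gene length was not matched for these distances, nor for the shares of the last part above. In the 39 genes the region ran on past the annotated end by a median of 2186 bp and by at most 12161 bp, and in 8 of them by at least 5 kb. The start site closest to a region was that of ZNF93, at 1618 bp. That region, at chr19:19887291-19899328, lies upstream of ZNF93 on the neighbouring gene ZNF253.

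Genes of the cluster next to the centromere, which include ZNF91 and ZNF93, were looked at singly. ZNF93 had 0% of its first, 28.7% of its middle and 74.1% of its last part in regions. ZNF90 had 80.7% of its last part covered and 0% of the others. ZNF43 had 67.1%, ZNF492 65.5%, ZNF257 49.4%, ZNF85 47.8%, ZNF100 43.7% and ZNF675 32.7% of the last part covered, with 0% of the first and middle parts in each. ZNF626 had 42.5% of the middle and 90.9% of the last part covered. ZNF681 had 9.0% and 51.0%, and ZNF431 had 0% and 22.0%. ZNF208, one of the longest genes at 71.1 kb, carried the longest region of the set, 38536 bp at chr19:21945479-21984014. It took up 86.4% of the middle and 76.1% of the last part, and began 26.9 kb from the start site. ZNF98 has no known strand here and was 16.4% covered, and ZNF99 was at 0%.

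ZNF91 was the only gene of that cluster, among the 26 with a strand and a region, in which the first part was the more covered. Its RefSeq gene body is 90.5 kb long, and 11.5% of the first part, 57.2% of the middle part and 0% of the last part lay in regions, which were at chr19:23348070-23365801 and chr19:23382108-23385096. The annotated end of the gene was 43.1 kb from the nearest region. The gene table lists 2 curated and 7 predicted transcripts for ZNF91, and which of them end where was not analysed here. The other 2 genes with more coverage in the first part than in the last were ZNF69 (43.3% against 22.2%), whose RefSeq body of 92.4 kb spans ZNF700 and nearly all of ZNF763, and ZNF44 (30.5% against 23.2%), which is 70.2 kb long. ZNF69 and ZNF44 were named after their values were seen.

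The covered length grew with gene length, while the covered share changed little. The 42 shorter genes had a median covered length of 4.2 kb and the 42 longer ones 9.0 kb. Their median covered shares were 24.0% and 22.0%. Across the 76 overlapping genes Spearman's rho with gene length was 0.54 for the covered length and -0.16 for the covered share. These are descriptions across genes of 1 list, and the covered length is bounded by the gene length.

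The 84 genes fell into 5 groups when a gap of over 1 Mb was taken to open a new one. The number depends on the setting: a gap of 2 Mb gave 4 groups and a gap of 500 kb gave 6. Leaving out genes under 5 kb also gave 6. The 5 genes nearest the chromosome end, ZNF554 to ZNF77 (chr19:2819868-2944971), all overlapped a region, with a median covered share of 29.9%. From ZNF557 to ZNF846 (chr19:7069703-9786160), 14 of 16 did, with a median of 33.9%. From ZNF653 to ZNF791 (chr19:11483429-12633834), 23 of 25 did, with a median of 22.5%. ZNF333 stood alone and was 36.0% covered. From ZNF101 to ZNF254 (chr19:19668153-24129968), the cluster next to the centromere, 33 of 37 did, with a median of 21.5%. The Wilson intervals of these shares overlapped from group to group, at 64.0 to 96.5%, 75.0 to 97.8% and 75.3 to 95.7% for the ZNF557, ZNF653 and ZNF101 groups.

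The skew to the 3′ end was also seen in each group. The last part was more covered than the first in 5 of 5 genes of the ZNF554 group, 12 of 12 of the ZNF557 group, 20 of 22 of the ZNF653 group and 25 of 26 of the ZNF101 group with a strand and a region, and in ZNF333. The distance from start site to region differed more. Its median was 22.4 kb in the ZNF101 group, where genes are long (median 34.6 kb), and 7.39 to 10.2 kb in the other groups of several genes, with median gene lengths of 16.9 to 22.6 kb. Promoter sequence differed between the groups as well. CCAATCAG was in 28 of 29 windows of the ZNF101 group, 21 of 24 of the ZNF653 group and 4 of 5 of the ZNF554 group. It was in 0 of 14 of the ZNF557 group, where 12 of the 14 genes with a window overlapped a region.

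Other genes in between overlapped a region at a share near the 10.5% of all protein-coding genes. Within the spans of the 5 groups lay 60 other protein-coding genes, of which 5 overlapped a region (8.33%, Wilson 95% interval 3.61 to 18.1%): RPSA2, ADGRE2, FBN3, ARHGEF18 and INSR. Most of the 60 were in the wide ZNF557 group, where 3 of 53 overlapped. In the ZNF653 group 0 of 4 other genes did, in the ZNF101 group 1 of 2 (RPSA2), and at ZNF333 the 1 other gene, ADGRE2, did. ADGRE2 overlaps ZNF333, and its covered bases lie in the region on ZNF333. On the whole arm 34 of 564 other protein-coding genes overlapped a region (6.03%). These genes were shorter, with a median of 12.7 kb against 28.5 kb. Among genes of 10 to 50 kb, the shares were 63 of 69 zinc finger genes (91.3%) and 15 of 282 other genes (5.32%). Over all protein-coding genes of that length the share was 5.87%.

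Zinc finger genes elsewhere were covered in fewer cases. On 19q, 107 of 178 overlapped a region (60.1%, Wilson 95% interval 52.8 to 67.0%), and on other chromosomes 127 of 304 (41.8%, 36.4 to 47.4%). Median gene lengths were 28.5 kb on 19p, 22.2 kb on 19q and 23.6 kb elsewhere. Among genes of 10 to 50 kb, 63 of 69 overlapped a region on 19p (91.3%), 87 of 135 on 19q (64.4%) and 84 of 192 elsewhere (43.8%). No test of these differences was made, because genes within a cluster are not independent and the list has no replicates. Over all genes of each set, with or without a region, the median covered share was highest on 19p. It was 22.5% on 19p, 14.7% on 19q and 0% elsewhere. Among overlapping genes only, the order was reversed, with medians of 24.0% on 19p, 27.8% on 19q and 29.7% elsewhere. The latter medians leave out the genes without a region, which were a larger share of the sets on 19q and elsewhere. The share of genes at least 50% covered was 9 of 84 on 19p, 17 of 178 on 19q and 35 of 304 elsewhere. The 3′ skew was shared: the last part was the more covered in 78 of 91 overlapping genes with a strand on 19q (85.7%) and in 80 of 107 elsewhere (74.8%). Of the 24 other 19p genes with a region and a known strand, 11 had it (45.8%). The first part was the more covered in 9 of them, and both were equal in 4.

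**Figure D3:**
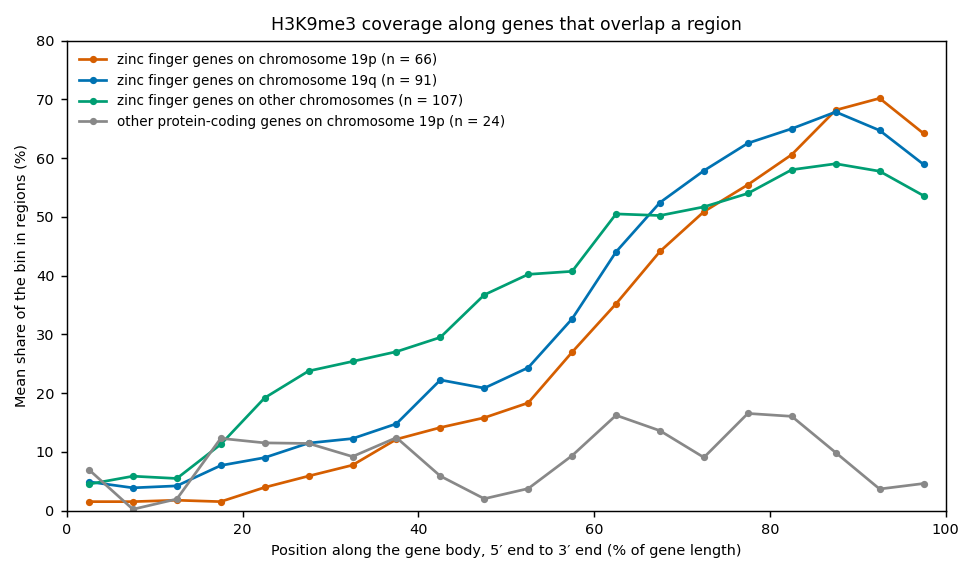
Mean share of each of 20 equal bins of the gene body lying in regions (y axis, percent), from the 5′ to the 3′ end (x axis), over the genes that overlap a region and have a known strand. For the 66 zinc finger genes of 19p it rises from 1.52% in the first bin to 70.2% in bin 19 and is 64.2% in the last; the 19q curve has a similar shape, and the 24 other genes of 19p stay low along the body.

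The regions on these genes tended to be long, though the shortest was 2359 bp. The 84 genes were met by 88 regions, of which 5 met 2 genes each. They had a median length of 6379 bp (95% order-statistic interval 5454 to 9641 bp), against 3522 bp over the 10402 other nuclear regions, without 17 rows whose running number in the list was above 1, and 3218 bp over the 121 other regions of 19p. Of the 88, 34 were at least 10 kb long (38.6%), against 5.01% of the other nuclear regions. None reached the length of the longest domains in the list: the ZNF208 region ranked 54 by length, and the next were those of ZNF728 at 26790 bp and ZNF559 at 23486 bp. The authors deposited a score for each region without a unit, which grows with length. The score per base had a median of 9.13 on these genes and 6.96 over the other nuclear regions. The highest on a member was 16.0, for a region on ZNF709 at chr19:12460353-12467523.

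**Figure D4:**
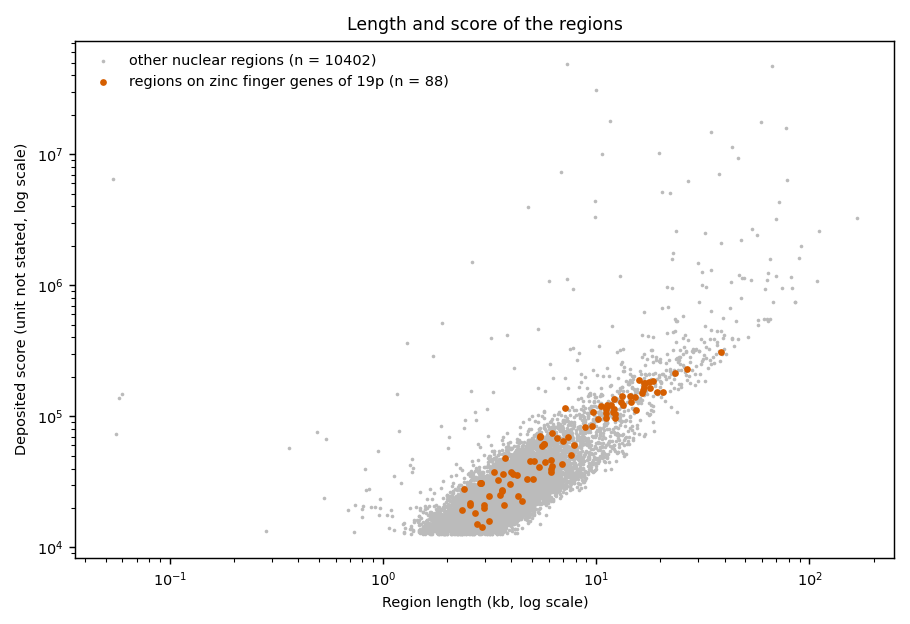
Deposited score (y axis, log scale, unit not stated) against region length (x axis, kb, log scale) for the 88 regions on zinc finger genes of 19p (orange) and 10402 other nuclear regions (grey). The orange points follow the grey cloud from 2359 to 38536 bp, mostly at its longer lengths, and hold none of the very high scores above it.

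Regions on 19p added up to 1.48 Mb in 209 regions, of which 44.6% of the bases lay within the zinc finger genes and 10.6% within other protein-coding genes. Bases within both kinds of gene, as where ADGRE2 overlaps ZNF333, count in each share. The spans of the 5 groups held 72.1% of the bases. Without counting overlaps more than once, the 84 genes extend over 2.60 Mb, and 25.3% of that lay in regions.

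Of 20 genes through which KRAB zinc finger proteins and H3K9me3 act, 3 overlapped a region, where 10.5% of all protein-coding genes did: SETDB1 (an H3K9 methyltransferase), its partner ATF7IP and its relative SETDB2, and the highest covered share was 5.75%. TRIM28, SUV39H1, SUV39H2, the HP1 genes CBX1, CBX3 and CBX5, and ERH itself were among the 17 without a region. Of 10 fibroblast marker genes, 1 overlapped, DCN at 9.25% of its length, again beside 10.5% of all protein-coding genes. The collagen genes COL1A1, COL1A2 and COL3A1 were among the 9 without a region. Counts this small and this near the background do not set either list apart.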

How the data were processed

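H3K9me3 CUT&RUN libraries of 3 ERH knockdown samples of BJ cells are pooled in the list of 10536 regions analysed here, per the description in the labels. The submitters' processing notes name hg38, Bowtie2 2.3.4.1, SAMtools 1.16.1, R 3.6.3, deepTools 3.5.0, bedtools 2.27.1 and SEACR 1.3 without roles. The threshold, any control library and the merging rule are not given in the sources used here. The authors deposited a score per region without a unit, and another column, a running number of unstated meaning, was above 1 in 17 nuclear rows, 0 of them on 19p; these were left out of the region lengths and scores.

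Genes and promoter windows came from RefSeq tables (GRCh38.p14). Strand came from the windows, and gene bounds span all listed transcripts. Values were computed with Python 3.11.15, numpy 2.4.6, pandas 2.3.3, scipy 1.17.1 and Biopython 1.88, and figures with matplotlib 3.10.9. No test was made, since there is 1 pooled list.

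Members and lists were chosen with earlier results of these data known. Genes named with values were the 12 most covered, 16 listed genes of the cluster next to the centromere, the ends of each group and the genes without a region; a further part of the rule, on genes with a promoter window inside a region, named none. Coordinates are 1-based. Finger numbers were not compared, because protein sequences were not used here. Alternatives filtered or joined regions, restricted genes, and changed the overlap and cluster thresholds.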

Additional observations from a re-analysis of the deposited data

How the results depend on the processing

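Of 57 values computed under alternatives for 9 results, 55 stayed within the interval of the reported value or, if counts, moved by at most 1.5 times. The machinery genes with a region went from 3 to 2 when regions under 2 kb were left out, which is at that limit. When only the upper part of the list by score was kept, from the median up, 82.1% of the genes overlapped a region and 1 of the 20 machinery genes did, and both values left that range. That setting removes regions by construction. The number of zinc finger genes with a region ranged from 69 to 76, the median covered share from 22.0% to 22.7%, and the share with the last part more covered from 94.9% to 96.9%. Promoter windows touching a region numbered 0 throughout. Leaving out ZNF559-ZNF177 and ZNF69, which overlap other genes of the set, was chosen after seeing the data and gave 74 of 82 genes with a region. Restricting the set by protein sequence and leaving out replicates were not run. No paired analysis was possible because the list analysed here merges its samples and holds no value per replicate, and the control group was not analysed here. Depth is unknown, so a gene without a region may carry signal under the authors' threshold.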

Other observations

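The arm also holds 12 annotated zinc finger pseudogenes, 11 of them within the 5 groups, and 6 of the 12 overlapped a region. The share over all pseudogenes was not computed, so this count has no background beside it. ZNF726P1, ZNF209P and ZNF849P, each under 2 kb long, lay wholly inside regions. ZNF833P was 60.6% covered, ZNF887P 37.3% and ZNF56P 24.1%. ZNF788P, ZNF812P, ZNF92P2, ZNF826P, ZNF861P and ZNF725P were at 0%. The pseudogenes were looked at after the results on the genes were known.

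Among the 34 other protein-coding genes of 19p with a region, the olfactory receptor gene OR10H4, 0.951 kb long, lay wholly inside one. It was followed by MATK, a tyrosine kinase gene (24.2%), ADGRE1, which encodes an adhesion receptor of macrophages (23.4%), the lipid transporter gene ABCA7 (21.7%) and USHBP1 (19.3%). These genes lie outside the zinc finger groups and were named after their values were seen.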
